A study of Mus musculus with 6 samples.

Results

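Sciatic nerve RNA of mice aged 1 month was examined for 10 genes that hold back or adjust the cell cycle: the 7 inhibitors of cyclin-dependent kinases (Cdkn1a, Cdkn1b, Cdkn1c, Cdkn2a, Cdkn2b, Cdkn2c and Cdkn2d) and the 3 polo-like kinases that are not mitotic kinases (Plk2, Plk3 and Plk5). They are 10 of 19058 genes tested. The array carries 15 probes named after these genes, 14 of which passed the filter on dim probes, at least 1 for each gene. The genes were selected on earlier results of the same comparison of OGT_SCKO with Ctrl nerves, so their levels and differences are given as a description, with no p-value for any of them. Nerves of littermate controls (Ctrl) and of OGT_SCKO mice were each collected in 3 pools, every pool was read on its own array, and no treatment is given in the labels. All animals are labelled as strain C56 BL6. The OGT_SCKO label stands for loss of Ogt, the enzyme that attaches O-GlcNAc to nuclear and cytoplasmic proteins, and the title of the series names Schwann cells, the glia of peripheral nerve. How the deletion was driven, which alleles the controls carried and how many animals made up a pool are not given in the sources used here.

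Cyclin-dependent kinase inhibitors set the brake on entry into the cell cycle. Members of the INK4 family (Cdkn2a, Cdkn2b, Cdkn2c and Cdkn2d) bind CDK4 and CDK6 and keep them from D-type cyclins, which leaves the retinoblastoma protein active. Members of the CIP/KIP family (Cdkn1a, Cdkn1b and Cdkn1c) bind complexes of cyclins with CDKs more broadly. In developing nerve, immature Schwann cells divide, and they leave the cell cycle as they myelinate; after nerve injury mature Schwann cells can divide again. Polo-like kinases 2 and 3 respond to growth factors and stress, and Plk5 is an atypical member of the family described mainly in the nervous system.

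Levels are log2 processed signals relative to the 75th percentile of their array, so that 0 is the level of that percentile, and differences are OGT_SCKO minus Ctrl on this scale. Among the arrays 59.0% to 65.2% of probes were well above background and no spot was saturated. The targeted gene Ogt stood at 0.31 ± 0.18 (SD, n = 3) in Ctrl and -0.97 ± 0.070 (SD, n = 3) in OGT_SCKO, 41.3% of the control level (limma adjusted p = 0.00117), although a probe outside the deleted part checks nothing. Per the file headers, OGT_SCKO 1, 2 and 3 and Ctrl 2 share slide 1, while Ctrl 1 and 3 lie on slide 2. Defining markers of Schwann cells (Sox10, S100b, Mbp, Egr2 and Cdh19) were above background on all 6 arrays. Their summed level ran from 7.36 to 7.75 in Ctrl and from 6.74 to 7.40 in OGT_SCKO, and 1 of the 5, S100b, fell. Skeletal muscle markers fell in 4 of 4 cases, with a summed level of 0.50 to 0.78 in Ctrl against -1.76 to -1.10 in OGT_SCKO. Adipocyte markers fell in 3 of 4, from a summed level of -0.31 to 1.73 in Ctrl to -2.38 to -0.89 in OGT_SCKO. Of the 6 macrophage markers 0 passed the limma test, with 1 higher and 1 lower at an unadjusted p under 0.05. Of the fibroblast and neuronal markers 1 each fell. Of the 4 perineurial markers 1 fell (3 lower at an unadjusted p under 0.05), and their summed level did not overlap, at 5.46 to 5.90 in Ctrl against 4.93 to 5.23 in OGT_SCKO. Of the 5 mural markers Pdgfrb rose, and Acta2 was lower at an unadjusted p under 0.05 only. Endothelial and erythroid markers gave 0 calls in limma (1 of 5 and 3 of 3 lower at an unadjusted p under 0.05), but their summed levels did not overlap either, at 2.74 to 3.00 in Ctrl against 1.75 to 2.53 in OGT_SCKO and at 6.41 to 7.24 against 5.79 to 6.15. The 2 measured T cell markers gave 0 calls, with 1 higher and 1 lower at an unadjusted p under 0.05. These are bulk nerve samples, in which fewer cells of a type and less RNA per cell cannot be told apart, and the part of these shifts in the results that follow was not tested.

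In OGT_SCKO nerves the INK4 genes Cdkn2a and Cdkn2b were higher and Cdkn1c and Plk5 were lower, from 1.79-fold for Cdkn1c to 29.6-fold for Plk5, whose fold depends on signals near background. These 4 of the 10 genes passed the threshold of the limma fit (adjusted p under 0.05), beside 23.3% of all genes tested. In the fit 2 were higher (11.2% of all genes) and 2 lower (12.1% of all genes). The pools of the groups did not overlap in 5 genes, these 4 and Cdkn1a, where 45.7% of all genes had no overlap. Nothing is read from these shares, because the genes were selected on this comparison. The median log2 fold change of the 10 genes was -0.0023, against -0.07 for all genes tested.

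**Figure D1:**
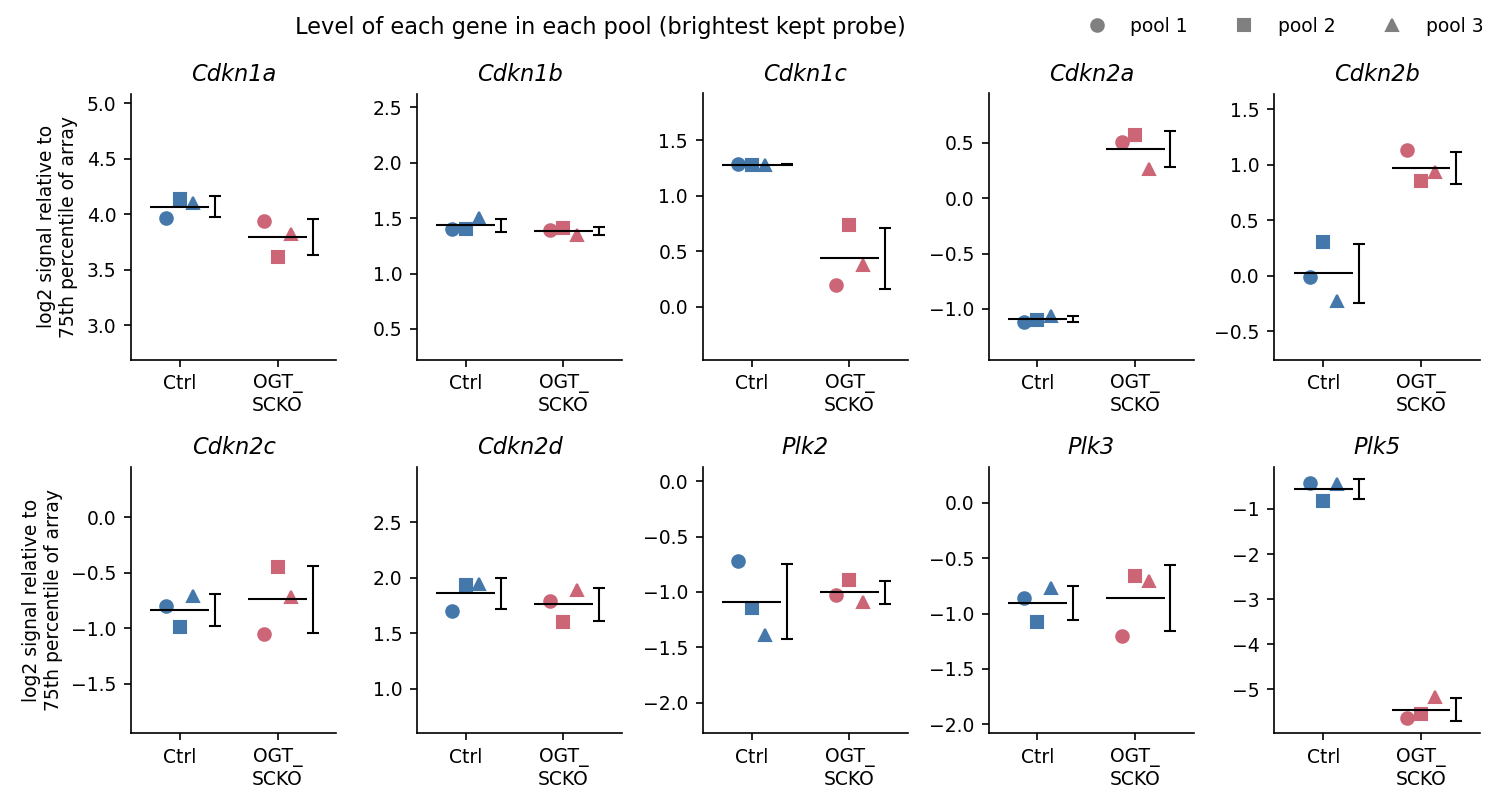
Level of each of the 10 genes in each pool, as log2 signal relative to the 75th percentile of the array, with Ctrl in blue and OGT_SCKO in red, the horizontal line at the group mean and the bar beside it spanning the SD above and below (n = 3). Axis ranges differ between panels; Cdkn2a and Cdkn2b lie higher and Cdkn1c and Plk5 lower in every OGT_SCKO pool than in any Ctrl pool, and the Plk5 panel spans the widest range.

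Plk5 had the largest difference of the group. Its probe, at chr10:79828140-79828199 (mm9, plus strand), read -0.42, -0.82 and -0.45 in Ctrl 1, 2 and 3 and -5.63, -5.55 and -5.16 in OGT_SCKO 1, 2 and 3. Every Ctrl pool was bright and every OGT_SCKO pool sat near the background, with no overlap. OGT_SCKO 1 was not well above background and the other two OGT_SCKO arrays were. In processed signal units the Ctrl arrays gave 3093, 1558 and 3161 and the OGT_SCKO arrays 69.8, 130.6 and 134.7. The means were -0.56 ± 0.22 (SD, n = 3) and -5.45 ± 0.25 (SD, n = 3), a log2 fold change of -4.89 (SE 0.18), which is 3.38% of the control level or 29.6-fold lower. Because these OGT_SCKO signals lie near background, the size of the fold depends on how background is treated: with normexp background correction it was 10.3-fold lower, and with slide as a block, against Ctrl 2 alone, the control on the same slide, 24.8-fold lower. The other polo-like kinases of the group gave no such difference. Plk2, a kinase induced by growth factors and by synaptic activity, read -0.72, -1.15 and -1.39 in Ctrl and -1.03, -0.89 and -1.09 in OGT_SCKO. Its groups overlapped, and the log2 fold change was 0.08 (SE 0.18). Plk3, a stress-responsive kinase, read -0.86, -1.07 and -0.77 in Ctrl and -1.20, -0.66 and -0.71 in OGT_SCKO, a log2 fold change of 0.05 (SE 0.18) with overlapping groups.

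Cdkn2a, whose locus encodes the CDK4 and CDK6 inhibitor INK4A and, from another first exon, the p53 activator ARF, was the inhibitor with the largest difference. Its brighter probe read -1.12, -1.10 and -1.06 in Ctrl and 0.51, 0.57 and 0.26 in OGT_SCKO. The Ctrl pools lay close together and all OGT_SCKO pools lay above them. The means were -1.09 ± 0.027 (SD, n = 3) and 0.45 ± 0.16 (SD, n = 3), a log2 fold change of 1.54 (SE 0.12) or 2.91-fold. The other probe, 78 bases away, read -3.41, -3.31 and -3.03 in Ctrl and -1.42, -1.47 and -1.72 in OGT_SCKO, also without overlap, a log2 fold change of 1.72 (SE 0.15) or 3.29-fold. Both probes are annotated in the files to transcript variant 1 of Cdkn2a. Whether they tell the INK4A and ARF transcripts apart was not tested.

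Cdkn2b encodes INK4B, an inhibitor of the same kinases that is known as a target of TGF-beta signalling, and lies next to Cdkn2a on chromosome 4. In the brighter Cdkn2b probe the Ctrl pools stood at -0.01, 0.30 and -0.23 and the OGT_SCKO pools at 1.13, 0.85 and 0.93. The means were 0.019 ± 0.26 (SD, n = 3) and 0.97 ± 0.14 (SD, n = 3), a log2 fold change of 0.95 (SE 0.16) or 1.93-fold. The other probe read -0.03, -0.42 and -0.44 in Ctrl and 0.79, 1.40 and 0.71 in OGT_SCKO, a log2 fold change of 1.26 (SE 0.22) or 2.40-fold. All 3 OGT_SCKO pools were above all 3 Ctrl pools by either probe, and Ctrl 2 was the highest control by the brighter probe but not by the other. Against Ctrl 2 alone, the brighter probe gave a log2 fold change of 0.67 (SE 0.19) and the other probe 1.39 (SE 0.32). Neither probe passed the threshold there. The other protein-coding neighbours of the locus in the RefSeq gene order, Mtap and Dmrta1, did not pass the test, with log2 fold changes of 0.17 (SE 0.11, limma adjusted p = 0.278) and 0.52 (SE 0.29, limma adjusted p = 0.234).

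The remaining INK4 genes overlapped between groups. Cdkn2c, which encodes INK4C, read -0.80, -0.99 and -0.71 in Ctrl and -1.06, -0.45 and -0.71 in OGT_SCKO, a log2 fold change of 0.09 (SE 0.18). Cdkn2d, which encodes INK4D, read 1.70, 1.94 and 1.95 in Ctrl and 1.79, 1.60 and 1.89 in OGT_SCKO, a log2 fold change of -0.10 (SE 0.13). In both genes the difference was smaller than the SD between pools of a group. The neighbours Cdkn2a and Cdkn2b thus had folds of 2.91 and 1.93, and Cdkn2c and Cdkn2d, at other loci, folds of 1.07 in opposite directions. Whether these folds differ from each other was not tested.

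The sequences of these probes show which stretches were read. The first 30 of the 60 bases of each probe are given 5′ to 3′ as designed, all in lower case, because no part of them carries a separate meaning. The Cdkn2a probes lie at chr4:88920405-88920464 and chr4:88920543-88920602 and the Cdkn2b probes at chr4:88952720-88952779 and chr4:88952276-88952335, all on the minus strand of mm9, with 31673 bases between the nearest probes of the genes.
Cdkn2a, brighter probe: ggcatgagaaactgagcgaaggcggccgcg
Cdkn2a, other probe: cttctagcgatgctagcgtgtctagcatgt
Cdkn2b, brighter probe: ttgagcctcaccttgaagccaaggggatca
Cdkn2b, other probe: ccagtgatgaattgtagtggtagcaggtta
Plk5: ctgatgggtaggggtctttgattatttata

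Among the CIP/KIP genes, Cdkn1c was lower in OGT_SCKO nerves. Cdkn1c encodes KIP2, an inhibitor expressed from the maternal allele and linked to cell cycle exit in developing tissues. Its probe, at chr7:150644753-150644812 (mm9, minus strand), read 1.28, 1.27 and 1.28 in Ctrl and 0.20, 0.73 and 0.38 in OGT_SCKO. The Ctrl pools were nearly identical and the OGT_SCKO pools spread more widely below them. The means were 1.28 ± 0.0034 (SD, n = 3) and 0.44 ± 0.27 (SD, n = 3), a log2 fold change of -0.84 (SE 0.15), which is 55.8% of the control level. The fold stayed at 1.79 against Ctrl 2 alone, but the threshold was then not passed, nor was it without OGT_SCKO 3, where the log2 fold change was -0.81 (SE 0.19). Cdkn1b, which encodes KIP1, read 1.40, 1.40 and 1.50 in Ctrl and 1.39, 1.41 and 1.35 in OGT_SCKO, with overlapping groups and a log2 fold change of -0.05 (SE 0.096). A further Cdkn1b probe was above background on 1 of the 6 arrays and gets no fold.

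Cdkn1a, which encodes CIP1, the inhibitor best known as a target of p53, was read by 3 probes that did not move together. The brightest probe, spotted 10 times on each array, read 3.96, 4.14 and 4.11 in Ctrl and 3.94, 3.62 and 3.82 in OGT_SCKO. Its groups were separated by a narrow gap, between Ctrl 1 and OGT_SCKO 1, and the log2 fold change of -0.27 (SE 0.12) did not pass the threshold. Spots of that probe on an array had a coefficient of variation of 2.50% to 5.65%. The probe of intermediate brightness read -0.09, 0.25 and -0.44 in Ctrl and -0.07, -0.56 and -0.57 in OGT_SCKO, with overlap and a log2 fold change of -0.31 (SE 0.22). The dimmest probe, annotated to transcript variant 2 and with 9331 bases between it and the brightest, read -4.23, -4.27 and -4.25 in Ctrl and -3.48, -3.68 and -2.99 in OGT_SCKO. All 3 OGT_SCKO pools were above all Ctrl pools, a log2 fold change of 0.87 (SE 0.18) or 1.83-fold. The probe was above background on all 6 arrays. Its Ctrl levels were low, with the lowest level well above background at -4.64 on Ctrl 2. With normexp background correction its log2 fold change was 0.62. The probe passed the threshold in the fit over probes. It did not pass without Ctrl 1, without Ctrl 2 or without Ctrl 3, nor with slide or replicate number in the fit. With slide as a block, this probe still differed by 0.89 (SE 0.28) on the log2 scale. The variant 2 probe minus the brightest probe ran from -8.41 to -8.19 in Ctrl and from -7.42 to -6.81 in OGT_SCKO. Because each of these probes already separated the groups, in opposite directions, this gap follows from the levels above and is no further evidence. Whether the use of transcripts differs was not tested. With the mean of the 3 probes in place of the brightest, Cdkn1a had a log2 fold change of 0.10, so that its sign depends on the probe.

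These probes are shown because they read different stretches of Cdkn1a, at chr17:29237377-29237436, chr17:29235299-29235358 and chr17:29227986-29228045 on the plus strand of mm9, again as their first 30 bases in lower case. The Cdkn1c probe is given beside them as the CIP/KIP probe that passed the threshold.
Cdkn1a, brightest probe: ctaagggagctcacaggacactgagcaatg
Cdkn1a, intermediate probe: tggggtagtttccatagtgacccgggtcct
Cdkn1a, variant 2 probe: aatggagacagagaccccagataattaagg
Cdkn1c: cgtagagcagcccacggttttgtggaaatc

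**Figure D2:**
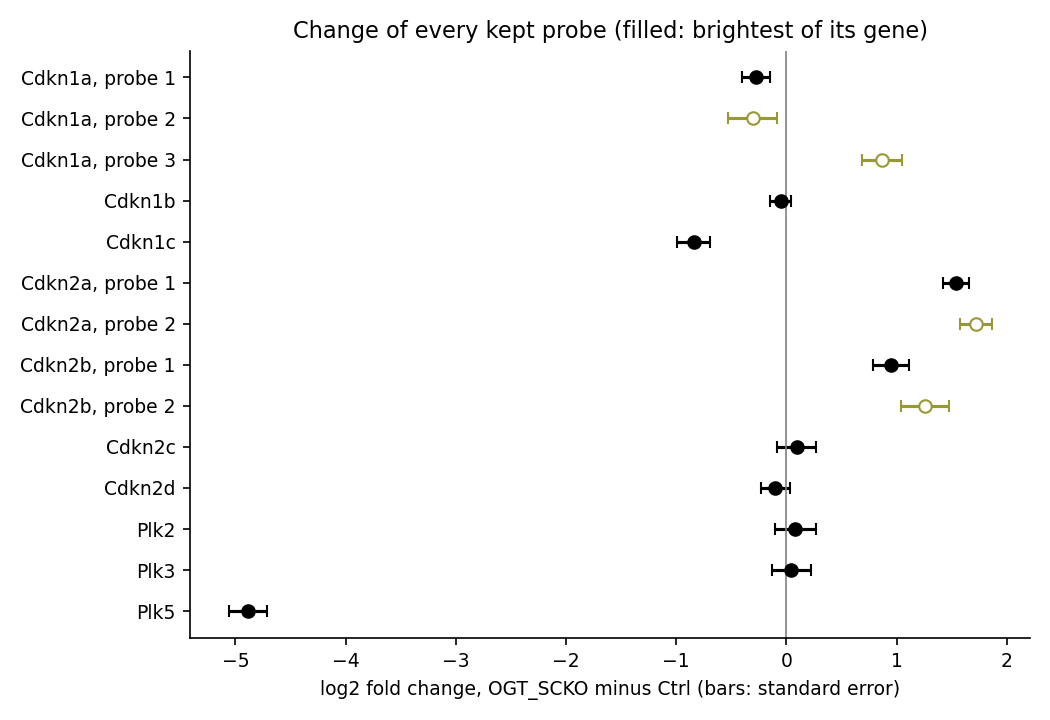
Log2 fold change (OGT_SCKO minus Ctrl) of the 14 kept probes of the 10 genes, with bars of 1 standard error of the limma fit over probes and filled points for the brightest probe of a gene. The paired probes of Cdkn2a and of Cdkn2b lie on the same side of 0, while probe 3 of Cdkn1a lies at 0.87 and its other probes at -0.27 and -0.31.

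RefSeq promoter windows (GRCm38.p6, 250 bases before to 50 after a start) were found for 9 of the 10 genes, 12 windows in all, since Cdkn1a, Cdkn2a and Cdkn2c have 2 starts each. They were searched on both strands. The AP-1 motif TGANTCA, to which JUN binds, was in 0 of the 12 windows, against 7.81% of all 32817 windows. The CRE motif TGACGTCA was in the windows of Cdkn2b and Plk2, against 1.79% of all windows. The Sp1 box GGGCGG was in 10 of the 12 windows, against 35.6% of all, and matches may overlap, as they do upstream of Plk5. GC content was 54.7% to 77.0% in the 12 windows except the downstream Cdkn2c start (44.0%), against a median of 52.7% for all windows. The Sp1 box holds only G and C, and its share was not adjusted for GC content. A p53 motif unit of 10 bases was in the windows of Cdkn1a and Cdkn2d, against 8.36% of all windows. The E-box CACGTG was in 1 window, of Cdkn2c, against 7.15%, and the TATA box TATAAA in none, against 13.6%. A match is a string of letters only, and whether any motif bears on these levels was not tested. The log2 fold changes of Cdkn2b and Plk2, which share the CRE motif, were 0.95 and 0.08.

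The 100 bases before the start are shown for the genes with the largest differences and for the upstream start of Cdkn1a, where the p53 units lie. Capitals mark matches to the motifs named above. The windows are chr4:89294620-89294719 and chr4:89282193-89282292 for the starts of Cdkn2a, chr4:89311033-89311132 for Cdkn2b, chr17:29090879-29090978 for Cdkn1a and chr10:80356359-80356458 for Plk5, on GRCm38.p6, the first 3 on the minus strand and the others on the plus strand.
Cdkn2a, upstream start: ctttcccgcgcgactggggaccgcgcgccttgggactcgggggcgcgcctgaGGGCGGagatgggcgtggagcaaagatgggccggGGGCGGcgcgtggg
Cdkn2a, downstream start: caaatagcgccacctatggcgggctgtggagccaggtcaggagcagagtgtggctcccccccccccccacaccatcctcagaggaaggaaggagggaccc
Cdkn2b: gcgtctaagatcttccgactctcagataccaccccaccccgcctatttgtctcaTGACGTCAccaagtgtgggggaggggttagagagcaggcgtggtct
Cdkn1a, upstream start: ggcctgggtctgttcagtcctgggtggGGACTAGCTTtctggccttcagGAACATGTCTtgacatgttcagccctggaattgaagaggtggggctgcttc
Plk5: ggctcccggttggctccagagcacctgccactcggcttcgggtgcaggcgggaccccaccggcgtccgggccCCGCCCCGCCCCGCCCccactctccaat

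**Figure D3:**
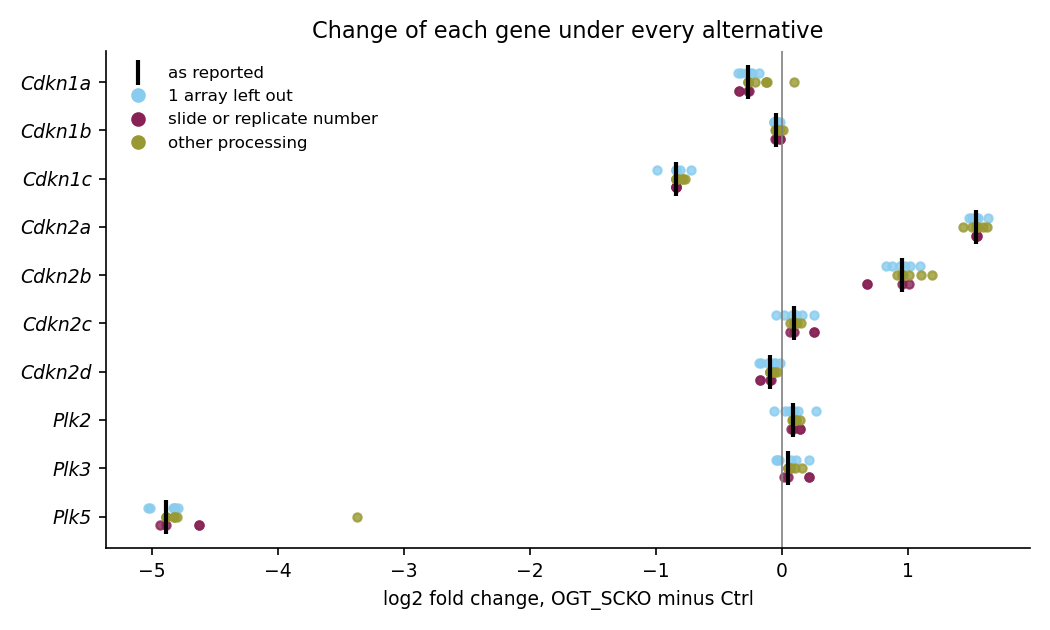
Log2 fold change (OGT_SCKO minus Ctrl) of each gene as reported (black bar) and under the alternatives (points: 1 array left out, slide or replicate number in the fit, other processing). Cdkn2a, Cdkn2b, Cdkn1c and Plk5 keep their sign in every alternative shown, and the Plk5 point at -3.37 is the normexp background correction.

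Related genes were counted by list, each count to be read beside the 11.2% of all genes tested that were higher, the 12.1% that were lower and the median log2 fold change of -0.07 over all genes. Among 11 measured G1 cyclins, CDKs and their activators, 2 rose and 1 fell, near the share of 23.3% called among all genes, with a median of 0.10. Ccnd1, the cyclin D1 gene whose product pairs with the kinases that INK4 proteins block, rose 2.78-fold (log2 fold change 1.47, limma adjusted p = 0.000694). Of the CDK-activating kinase, Mnat1 rose 1.65-fold (limma adjusted p = 0.0356, but 0.0714 with slide as a block) and Ccnh fell 1.40-fold (limma adjusted p = 0.0463, but 0.258 with slide as a block). Cdk7, its kinase subunit, had a log2 fold change of 0.38 (limma adjusted p = 0.261). Cdk4, the kinase itself, had a log2 fold change of -0.03 (limma adjusted p = 0.897), and Cdk6 had no kept probe under that name.

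Among 8 measured cyclins and CDK regulators of S phase and mitosis, 5 rose and none fell, with a median of 0.55. Ccnb1 rose 2.39-fold (limma adjusted p = 0.00177), Ccnb2 1.76-fold (0.00369), Ccna2 2.09-fold (0.00523) and Cks2 by 0.58 on the log2 scale (0.0282), the first 3 being mitotic or S-phase cyclins. Among 12 measured genes of the RB and E2F group, on which the inhibitors act through the kinases, 1 rose and 3 fell, with a median of 0.06. Rbl1, the RB relative p107, rose 2.16-fold (limma adjusted p = 0.00102). The E2F partners Tfdp2 and Tfdp1 fell 1.86-fold and 1.42-fold (limma adjusted p = 0.00434 and 0.0194), and E2f8, a repressor, fell 1.34-fold (limma adjusted p = 0.0466, but 0.0862 with normexp background correction). Rb1 had a log2 fold change of -0.10 (limma adjusted p = 0.524).

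Among 7 measured genes of the mitotic polo-like kinases Plk1 and Plk4 and their partners, 3 rose and none fell, with a median of 0.26. Aurka, the kinase that activates PLK1, rose 2.61-fold, with 2 of 3 Ctrl arrays above background (limma adjusted p = 0.00334). With normexp background correction the rise of Aurka was 1.79-fold. Plk1 rose 2.02-fold (limma adjusted p = 0.0135) and Bub1b, a spindle checkpoint kinase, 1.61-fold (limma adjusted p = 0.0285). Plk4, which drives centriole duplication, had a log2 fold change of 0.20 (limma adjusted p = 0.527). Both Aurka and Plk4 passed the filter on dim probes only through the OGT_SCKO arrays.

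Regulators of the inhibitors were tested by their own lists. Of 18 measured genes of p53 and its targets, 5 rose and none fell, with a median of 0.24. Trp53 rose 1.65-fold (limma adjusted p = 0.0039), Gadd45a, a stress sensor, 2.25-fold (limma adjusted p = 0.00972) and Bax, a promoter of cell death, 2.11-fold (limma adjusted p = 0.0117). Plk1, also on that list and among the 5, was given above with the mitotic kinases. Bbc3, the last of the 5, rose 1.51-fold (limma adjusted p = 0.0202). The list was not sorted by whether p53 raises or lowers a target, so the count does not measure p53 activity. Mdm2 and Ccng1, targets of p53 among the 13 genes that did not pass, had log2 fold changes of 0.22 and 0.15 (limma adjusted p = 0.26 and 0.362). Of 17 measured regulators of inhibitor transcription, 1 rose and 2 fell, with a median of -0.16. Mycn fell 2.26-fold (limma adjusted p = 0.00173) and Foxo4, a factor of the family that activates Cdkn1b, 2.28-fold, with 2 of 3 OGT_SCKO arrays above background (limma adjusted p = 0.00775). With normexp background correction the fall of Foxo4 was 1.54-fold, and it passed the filter on dim probes only through the Ctrl arrays. Ets1, an activator of the INK4A transcript, rose 1.72-fold (limma adjusted p = 0.0134). The Polycomb genes Bmi1, Ezh2 and Cbx7, repressors of the Cdkn2a locus, did not pass, with log2 fold changes of 0.35, -0.22 and -0.49 (limma adjusted p = 0.189, 0.144 and 0.216).

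Of 11 measured genes of inhibitor turnover, 3 rose and none fell, a total near the 23.3% called among all genes, with a median of 0.06. Fbxw7, a substrate receptor for cyclin E, rose 1.79-fold (limma adjusted p = 0.0125), Ddb1 1.36-fold (limma adjusted p = 0.0311) and Cdc20, an activator of the anaphase-promoting complex, 1.56-fold (limma adjusted p = 0.0315). Skp2, which marks KIP1 for degradation, had a log2 fold change of 0.06 (limma adjusted p = 0.849). Of 11 immediate early genes, a class to which Plk2 and Plk3 also belong, Fos rose 3.37-fold (limma adjusted p = 0.000617) and Atf3 1.85-fold (limma adjusted p = 0.00793), and 9 did not pass, with a median of 0.12 and a share higher not far from the 11.2% of all genes. Of 15 genes linked to senescence 7 were tested, of which 2 rose and 1 fell, with a median of 0.36. Hmga2 rose 2.23-fold (limma adjusted p = 0.00716), Lmnb1, a nuclear lamin, 1.36-fold (limma adjusted p = 0.029), and Igfbp5 fell by 0.58 on the log2 scale (limma adjusted p = 0.0107). The list was not sorted by the direction in which each gene changes in senescence, so the count and median do not measure senescence. Il6, Il1a, Il1b, Cxcl1, Cxcl2, Mmp3, Mmp12 and Igfbp7, secreted factors of that list, had no kept probe under these names. Whether they were dim or missing from the array was not examined.

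**Figure D4:**
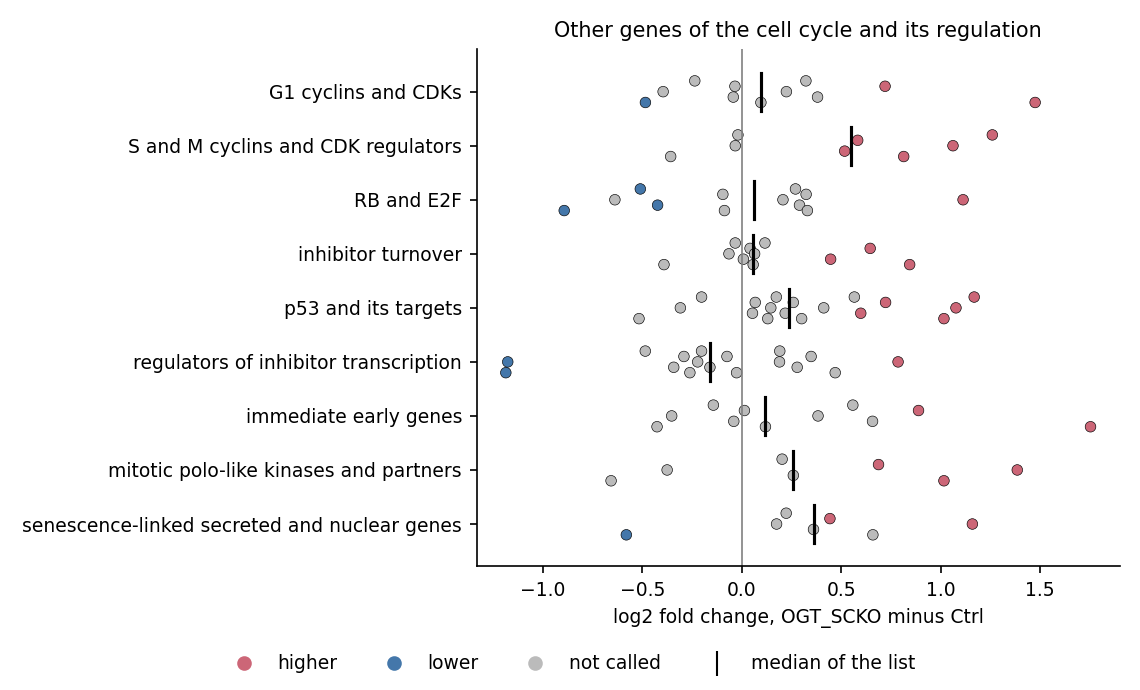
Log2 fold change (OGT_SCKO minus Ctrl) of the measured genes of 9 lists related to the inhibitors and kinases, 1 point per gene, with red for higher, blue for lower and grey for genes that did not pass the limma threshold, and a black bar at the median of each list. The median is highest for cyclins and CDK regulators of S phase and mitosis, at 0.55, and lowest for regulators of inhibitor transcription, at -0.16.

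In all, 30 genes of these lists passed, Plk1 counted once although 2 lists hold it. With slide as a block, which sets the OGT_SCKO pools against Ctrl 2 alone, 7 genes of these lists passed: Ccnd1, Ccnb1, Rbl1, Aurka, Gadd45a, Mycn and Fos. Without Ctrl 1, Ctrl 3 or OGT_SCKO 3 the count was 19, 14 or 16. Of the 5 lists with no gene lower, those of S phase and mitosis and of inhibitor turnover also had 0 genes lower at an unadjusted p under 0.05, and those of p53, the mitotic kinases and the immediate early genes had 1, 1 and 2.

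The genes whose profile over the 6 arrays was most like that of Cdkn2a, by Pearson correlation of levels among 15303 genes with a gene symbol, were Gm7467 (0.999), Eif4a1 (0.998) and Flrt3 (0.997), with log2 fold changes of 1.10, 0.35 and 1.64. For Plk5 they were Wdr5b, Cend1 and Pcca (all 0.999), with log2 fold changes of -0.94, -1.23 and -1.33. In all, 907 and 926 genes reached 0.95 with Cdkn2a and Plk5. All values share the same 6 arrays and the same difference between groups, so they describe the pattern only.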

How the data were processed

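RNA of 3 Ctrl and 3 OGT_SCKO pools was read on 1-colour arrays, 1 per pool. Per the file headers, the intensity of each spot comes from Feature Extraction of Agilent, version 11.5.1.1, after background subtraction, detrending and a floor for the lowest signals, with no scaling between arrays. The authors' deposited log2 values have the same distribution in each column and served as an alternative. Other deposited flags mark spots that are well above background, saturated or outliers.

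Values were log2 processed signals minus the 75th percentile of each array, with outlier spots left out (1 spot of these genes) and spots of a probe averaged. Probes were kept where every array of Ctrl or every array of OGT_SCKO was well above background, and the brightest kept probe stood for a gene. Names came from RefSeq accessions (GRCm38.p6) for 27655 of 39429 probes; positions are those of the files, on mm9. The comparison used limma 3.58.1 (lmFit, eBayes; R 4.3.3) with Benjamini-Hochberg adjustment over 19058 genes; the fit was tested on simulated data. Standard errors of second probes come from the same fit over probes. The number of arrays limits the precision, and a p-value here reflects only how pools of unknown make-up vary. The genes and lists were chosen with earlier results of these data known. Named genes were all 10 genes and up to 4 genes per list with the smallest p among those past the threshold. The 3 genes most like the largest rise and fall were named too. Bbc3, Cdk4, Cdk7, Rb1, Plk4, Mdm2, Ccng1, Bmi1, Ezh2, Cbx7, Skp2, Mtap and Dmrta1 were added after their values were seen. Same-numbered pools did not pair: the correlations of their deviations were -0.27, -0.53 and 0.06. Alternatives were other scaling, background correction, filters, probe rules, variance models, slide or replicate number in the fit, and each array left out. Some markers of the Schwann cell list are not reported here.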

Additional observations from a re-analysis of the deposited data

How the results depend on the processing

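Of 179 values of the 10 genes under alternatives, 172 kept their side of the threshold. Most of these belong to genes that passed in no fit, so the total says little about the calls. Among the called genes, Cdkn2a passed in 18 of 18 alternatives, Plk5 in 17 of 17, Cdkn2b in 15 of 18 and Cdkn1c in 14 of 18. The call of Cdkn1c ended with slide as a block, within slide 1, with the replicate block and without OGT_SCKO 3, and that of Cdkn2b with slide as a block, within slide 1 and with the replicate block, so that 2 of the 10 genes, Cdkn2a and Plk5, passed in these 3 fits. Plk5 has no value with only probes above background on all 6 arrays. Under normexp the brighter Cdkn2b probe changed, and the log2 fold change was 1.19. Over all genes, 4438 passed as reported, 2629 with no filter on dim probes, 1226 with slide as a block, 406 within slide 1 and 1475 with the replicate block. Leaving out 1 array gave 1974 to 5630 genes. For the related lists, where 30 genes passed as reported, the counts were 19 with no filter on dim probes, 7 with slide as a block, 1 within slide 1 and 12 with the replicate block, and 14 to 32 when 1 array was left out. The replicate numbers do not pair the pools. Both slide fits rest on Ctrl 2 as the lone control, assumed to vary like the OGT_SCKO pools. Signal over background limits Plk5 in OGT_SCKO, and the genes not tested limit the senescence list.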

Other observations

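Cdkn1c is an imprinted gene, and other imprinted growth genes, a list chosen after its values could be seen, went in both directions. Of 12 measured genes, 4 fell and 2 rose, with a median log2 fold change of 0.06, beside 12.1% lower and 11.2% higher among all genes tested. Igf2, a growth factor, fell 4.72-fold (limma adjusted p = 0.000818), Dlk1, a membrane protein of immature cells, 4.54-fold (limma adjusted p = 0.00178), H19, the non-coding neighbour of Igf2, 2.44-fold (limma adjusted p = 0.00383) and Sgce 1.36-fold (limma adjusted p = 0.0213). Nnat rose 8.36-fold (limma adjusted p = 0.000201) and Slc38a4, an amino acid transporter, 1.91-fold (limma adjusted p = 0.00546). In the gene order around Cdkn1c itself, Kcnq1ot1 and Slc22a18 had log2 fold changes of -0.46 and -0.28 (limma adjusted p = 0.221 and 0.188).

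Around Plk5, also singled out after seeing the values, Adamtsl5, the protein-coding gene next to it, rose 2.06-fold (limma adjusted p = 0.00712) and Reep6 fell 2.20-fold (limma adjusted p = 0.00513), while Mex3d on the other side had a log2 fold change of 0.04 (limma adjusted p = 0.859). Next to Cdkn1b, the non-coding gene Lockd rose 1.56-fold (limma adjusted p = 0.0126), while Cdkn1b had overlapping groups.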
